A study of Mus musculus with 31 samples.

Results

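Intronic RNA was compared between newly made and older RNA of wild-type (WT) mouse embryonic stem cells, gene by gene. The cells were the male DTCM23/49 XY line, which carries a conditional Dicer1 gene. They were grown with 200 uM 4-thiouridine (4sU), a uridine analogue that marks RNA made during the pulse, for 10 or 15 minutes. RNA that had taken up 4sU (labelled, called new here) was separated from RNA that had not (called preexisting in the characteristics and total in the titles). WT cells gave 8 of the series' 31 libraries, 4 new and 4 preexisting, from 2 cultures at both pulse lengths. A further 8 libraries came from cells of the same line that had lost Dicer1 under 800 nM 4-hydroxytamoxifen, and are given only where they show the same measure in other samples. A treatment of 8 days is recorded for the WT libraries as for the depleted ones, without saying what the WT cells received. The labels call the cultures biological replicates without saying how they were grown apart, so p-values measure the spread between these cultures. Of the intronic entries of the deposited table, 89935 matched a gene, 28004 genes had at least 1, and 11940 genes with a mean of at least 1 TPM of intronic signal over the 16 libraries were tested.

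Most mammalian genes are transcribed with introns, which the spliceosome cuts out, often while the polymerase is still at work; the excised lariat is then opened and degraded in the nucleus. Some introns leave more slowly, and transcripts that hold such detained introns can wait in the nucleus as polyadenylated RNA. RNA that is only minutes old is therefore rich in introns, and intronic signal in older RNA can come from slow or skipped splicing, from stable excised introns, or from an exon of another transcript that lies in the intron.

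The summed exonic signal of embryonic stem cell markers was high in all 8 WT libraries, at 1289 to 1888 TPM. Single markers ran from Zfp42 (8.02 to 13.7 TPM) and Sox2 (18.3 to 30.8 TPM) up to Tdgf1 (524 to 1075 TPM). The summed markers of fibroblasts (0.659 to 2.38 TPM), primitive endoderm (2.08 to 8.22 TPM, mostly Dab2) and trophoblast (0.0770 to 1.00 TPM) were low. Exonic Dicer1 was present in every WT library, at 7.34 to 9.65 TPM in new and 13.4 to 17.9 TPM in preexisting RNA. The libraries of 1 fraction correlated with one another at 0.90 to 0.98 over the genes tested, and libraries of different fractions at 0.78 to 0.85. TPM is a share of a library, so every level here is relative to all other RNA in its fraction; less RNA per cell and fewer cells with a gene cannot be told apart. How fully labelled RNA was removed from the preexisting fraction was not tested.

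Intronic entries took 17.9% and 15.5% of the signal in new RNA of culture 1 (10 and 15 minutes) and 18.4% and 16.7% in culture 2. In preexisting RNA they took 4.49% and 4.71% in culture 1 and 5.49% and 4.41% in culture 2. The fractions did not overlap, and new RNA labelled for 10 minutes held the larger intronic share in both cultures. The culture means were 17.1% ± 0.58 (SD, n = 2) and 4.77% ± 0.25, a difference of 12.4 percentage points and a 3.59-fold ratio (exact permutation test, two-sided, p = 0.33, the smallest that 2 against 2 cultures allow). Depleted cells had higher shares in both fractions, 21.4% ± 0.81 and 5.94% ± 0.20, and nearly the same ratio, 3.61-fold.

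**Figure D1:**
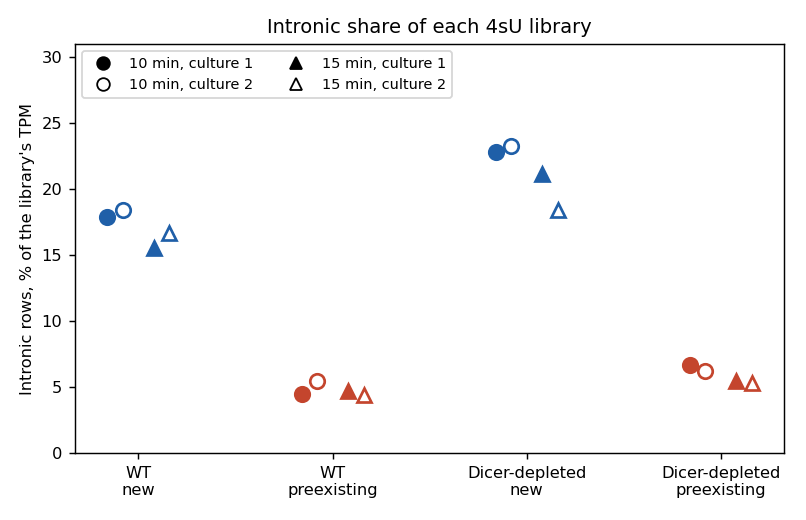
Share of each library's signal on intronic entries, in percent, for both RNA fractions of WT and of Dicer-depleted cells; each point is a library and the axis starts at 0. The 4 new WT libraries lie between 15.5% and 18.4%, and the 4 preexisting ones between 4.41% and 5.49%.

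Gene by gene, introns were mostly gone from older RNA. Of 11940 genes 11289 (94.5%) passed the test (limma, adjusted p under 0.05). Intronic signal was higher in new RNA for 11222 of them (94.0% of the genes tested) and higher in preexisting RNA for 67 (0.561%), and 651 were not called. With no test, the 4 new libraries all lay above the 4 preexisting ones for 11088 genes (92.9%), and the reverse held for 73 (0.611%). The median gene differed by 1.98 on the log2(TPM + 0.5) scale. Preexisting intronic signal as a percent of new intronic signal, called the kept percent here, had a median of 16.4% and quartiles of 11.8% and 23.4%. Exonic signal of the same genes had a median of 93.1% on that measure, and was called for 14.4% of them, 1027 (8.60%) higher in new and 692 (5.80%) higher in preexisting RNA. A kept percent is a ratio of shares of 2 libraries and not the share of molecules that outlived the pulse. When values were rescaled to the intronic entries alone, the median difference moved from 1.98 to 0.76, and 6050 genes (50.7%) were called, 5244 (43.9%) higher in new and 806 (6.75%) higher in preexisting RNA; every direction below should be read against that shift.

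The kept percent fell between 10 and 20% for 5944 genes (49.8%) and between 20 and 50% for 3378 (28.3%). It was under 5% for 154 genes (1.29%), 50 to 100% for 558 (4.67%) and 100% or more for 225 (1.88%). Of the protein-coding genes 128 (1.25%), and of the long noncoding RNAs (lncRNAs) 78 (6.53%), stood at 100% or more. To ask which genes stand apart from the median gene, values were also centred on each library's median gene. On that scale 3677 genes (30.8%) were called: 1481 (12.4%) lost more intronic signal than the median gene and 2196 (18.4%) kept more. These last percentages are the background for the gene groups below. For calls of new against preexisting RNA, the background is 94.0% higher in new and 0.561% higher in preexisting RNA.

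**Figure D2:**
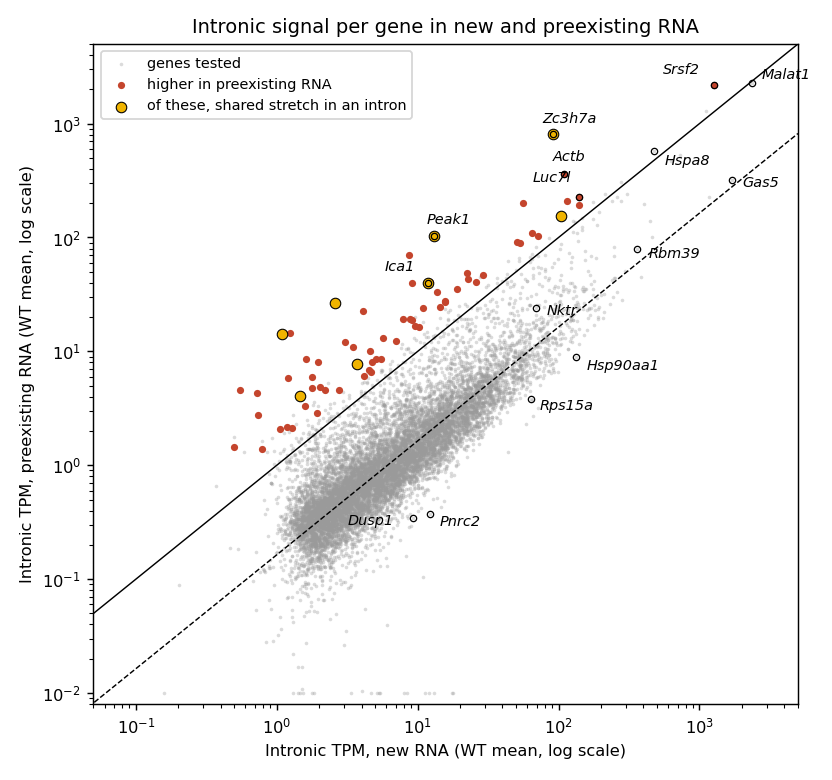
Mean intronic TPM of each tested gene in new (horizontal) and preexisting (vertical) RNA of WT cells, both on log axes with a value of 0 drawn at 0.01; the solid line marks equal values and the dashed line the median kept percent of 16.4%. Most genes lie along the dashed line, and the 67 genes higher in preexisting RNA lie above the solid line (red, or yellow for the 8 with the shared stretch described further on).

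The 12 genes named by the rule as higher in new RNA had kept percents of 3.05 to 6.85%. Pnrc2 (chr4:135870918-135873850 in GRCm38), a coregulator of nuclear receptors that also acts in mRNA decay, had intronic values of 12.2 and 8.51 TPM in new RNA of culture 1 (10 and 15 minutes) and 12.8 and 15.8 TPM in culture 2, against 0.210 and 1.29 TPM and 0 and 0 TPM in preexisting RNA. It had the largest difference among genes overlapping no other gene that met the naming rule, 4.00 (SE 0.40, limma adjusted p = 4.9e-05). Nr5a2 (chr1:136842571-136960448), an orphan nuclear receptor of naive pluripotency, had 52.5, 37.1, 36.7 and 28.3 TPM in new RNA, in the same order, and 3.09, 2.84, 2.05 and 1.43 TPM in preexisting RNA. The fractions did not overlap, and the kept percent was 6.09% (5.66% in depleted cells).

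The other genes named by the rule in this direction were Rps15a (difference 3.99), Rbm8a (3.94), Ndufa4 (3.86), Hsp90aa1 (3.82), Rps4x (3.79), Ing3 (3.75), Plekhf2 (3.73), Rpf1 (3.70), Lsg1 (3.69) and Mcm3 (3.68), all called, with kept percents of 3.93 to 6.85%. They span the ribosome (Rps15a, Rps4x), its assembly (Rpf1, Lsg1), the exon junction complex (Rbm8a), the respiratory chain (Ndufa4), a heat shock chaperone (Hsp90aa1) and the replicative helicase (Mcm3). Mcm3 intronic signal was 37.2, 21.3, 30.7 and 23.8 TPM in new and 1.52, 2.71, 1.51 and 1.35 TPM in preexisting RNA. Relative to the median gene, Mcm3 still lost more (1.64, adjusted p = 0.0038), and so did the others except Rps15a (1.95, adjusted p = 0.072).

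Intronic signal was next set against exonic signal of the same gene in the same library, so that a gene's overall share of a fraction cancels. The intronic to exonic ratio passed the test for 8441 of 10004 genes (84.4%), was higher in new RNA for 8333 (83.3%) and higher in preexisting RNA for 108 (1.08%), with a median difference of 2.03. The largest differences among genes meeting the rule were those of Lin7c (4.83), Ing3 (4.77), Eif2s3x (4.67), Ywhaz (4.65), Pdcl (4.61) and Pabpc1 (4.57), followed by Mtfr1, Cltc, Csnk2a1, Laptm5, Plekhf2 and Hdgf (4.54 to 4.44). Pabpc1, the main cytoplasmic poly(A)-binding protein, had intronic values of 98.1, 79.5, 73.4 and 67.5 TPM in new and 10.3, 8.16, 8.06 and 5.07 TPM in preexisting RNA, while its exonic mean went from 880 to 2169 TPM. Introns thus made up 8.27% of Pabpc1 signal in new and 0.362% in preexisting RNA.

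The naming rule asks that the intronic values of the fractions do not overlap, so nearly all genes that met it were higher in new RNA, and it could hardly name a gene whose ratio was higher in preexisting RNA. In that direction it named Zfp202, a zinc finger gene (chr9:40192316-40213604), whose ratio was not called (-0.10, SE 0.27, limma adjusted p = 0.73). Its intronic signal fell from 43.8, 38.8, 39.3 and 41.2 TPM to 7.96, 9.34, 10.8 and 8.07 TPM, and its exonic mean was also lower in preexisting RNA, at 5.75 against 28.3 TPM. Introns made up 59.0% of Zfp202 signal in new and 61.3% in preexisting RNA. Zfp202 was the second highest in a ranking of intronic share in preexisting RNA that ran over 1002 genes; Cd59b was first at 70.6%, followed after Zfp202 by Platr15 (57.6%), AU020206 (56.8%), Echdc2 (56.7%), Gm11261 (54.8%), 4632427E13Rik (52.2%), Kmt5c (52.0%), Tdrp (51.9%), Rnf25 (51.4%), P4hb (49.8%) and Alg11 (49.2%). The kept percents of these 12 genes ran from 15.8% in 4632427E13Rik to 181% in P4hb, with Gm11261 at 18.5%, Zfp202 at 22.2% and the others at 30.0% or more. The lowest of them rested on the 10 minute libraries: 4632427E13Rik had 11.9, 0.918, 34.5 and 0.858 TPM in preexisting RNA. Its kept percent was 4.76% without the 10 minute library of culture 2, and all its intron bases were exonic in another transcript. Without that library Cd59b moved from 64.7 to 58.2%. On entries free of annotated exons, Cd59b kept 14.8%, Zfp202 21.5%, Platr15 87.6%, Gm11261 19.9%, P4hb 15.3% and Alg11 8.45%. The other genes of the ranking had no value there.

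Genes of the splicing machinery itself ran from low to high kept percents. All 36 tested genes of the core spliceosome were higher in new RNA, against 94.0% of all genes tested, with a median difference of 2.60 and a median kept percent of 11.6%; 15 of the 36 lost more than the median gene, against 12.4% of all genes tested, and 1 kept more. Snrpe, an Sm ring protein, had 30.4, 27.4, 26.2 and 26.8 TPM in new and 1.33, 2.31, 2.63 and 1.04 TPM in preexisting RNA (3.60, SE 0.18). Sf3b1, the branch site recognition subunit, kept 8.59%. The member that kept more was U2af1, which binds the AG at the intron end: it had 18.2, 15.4, 17.4 and 17.9 TPM in new and 5.07, 6.95, 12.6 and 7.11 TPM in preexisting RNA, a kept percent of 46.1% (38.1% without the preexisting 10 minute library of culture 2). U2af1 was higher in new RNA (1.11, adjusted p = 0.0043), lower than the median gene after centring (-0.93), and not called when culture 1 was left out (0.81, adjusted p = 0.061).

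All 22 tested hnRNP genes, which coat nascent RNA, were higher in new RNA (median kept percent 15.2%), against 94.0% of all genes tested. Of the 22, 7 lost more and 1 kept more than the median gene. Hnrnpa3 kept 6.55%, while Hnrnpdl kept 41.1%. For Hnrnpdl the new libraries held 158, 169, 133 and 155 TPM and the preexisting ones 58.4, 61.8, 73.7 and 58.4 TPM; it was higher in new RNA by 1.27 and, centred on the median gene, lower by 0.76 (adjusted p = 0.048).

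SR proteins bind exonic enhancers and include factors that regulate their own splicing through poison exons. Of 15 tested, 12 were higher in new RNA, against 94.0% of all genes tested. In preexisting RNA 1 was higher, against 0.561%, and 2 were not called. Relative to the median gene, 2 lost more and 3 kept more, against 12.4 and 18.4% of all genes. On the entries free of annotated exons of 6 members, the median kept percent was 9.36%, against 13.0% for all genes with such entries. Over all entries the median was 19.7%, with a range of 11.8 to 173%. Tra2b (11.8%), Srrm1 (12.2%) and Srsf3 (15.7%) were at the low end. Srsf2 had intronic values of 1484, 1221, 1083 and 1244 TPM in new and 1420, 2186, 3414 and 1690 TPM in preexisting RNA (-0.77, SE 0.19, limma adjusted p = 0.0056). One of its preexisting libraries lay inside the range of the new ones, and the call was lost without culture 2 (-0.41, adjusted p = 0.12). Exonic Srsf2 signal also stood higher in preexisting RNA, at 2167 against 1360 TPM, and the ratio did not pass the test (-0.09, adjusted p = 0.74).

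Srsf1 had 112, 78.9, 125 and 125 TPM in new and 149, 177, 137 and 143 TPM in preexisting RNA. The libraries did not overlap, and the difference of -0.47 did not pass the test (adjusted p = 0.054). Srsf5 had 123, 129, 117 and 105 TPM in new and 76.2, 51.9, 87.4 and 76.0 TPM in preexisting RNA (0.70, adjusted p = 0.063; -1.14 when rescaled to intronic entries). For Srsf1 and Srsf2 the intronic entry with the most preexisting signal, holding 41.0 and 45.8% of it, was a single intron (881 and 502 bases) of which every base was exonic in another annotated transcript. What is an intron in one transcript model of these genes is thus an exon in another.

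Genes known from other work for detained introns were mostly higher in new RNA too. Of 23 tested, 22 were higher in new RNA, against 94.0% of all genes tested, and 1, Luc7l, in preexisting RNA, against 0.561%. The median kept percent was 22.2%, and 12.1% on entries free of annotated exons, which 15 members had. Relative to the median gene, 2 lost more and 3 (Luc7l, Ddx5 and Hnrnpdl) kept more, a share below the 18.4% of all genes. In the entry with the most preexisting signal, 77.7% of bases for Ddx5 and 100% for Hnrnpdl were exonic in another transcript. Over all entries, Prpf4b (8.12%) and Dusp11 (9.94%) kept least. The CDC2-like kinases that phosphorylate SR proteins kept 16.2% (Clk4), 16.5% (Clk2) and 17.5% (Clk1), near the median gene.

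Rbm39, a U2AF-like splicing factor, had 450, 387, 335 and 277 TPM in new and 74.8, 73.6, 89.2 and 79.9 TPM in preexisting RNA, and kept 21.9%. Ddx5, an RNA helicase that also serves the microprocessor, had 128, 109, 117 and 135 TPM in new and 55.6, 50.3, 81.7 and 55.6 TPM in preexisting RNA, and kept 49.7%. Ddx5 was higher in new RNA by 1.01 (adjusted p = 0.0026) but lower by 0.82 once values were rescaled to intronic entries. For Nktr, a cyclophilin with an SR domain, the new libraries held 67.6, 63.7, 76.3 and 69.6 TPM and the preexisting ones 17.8, 16.3, 43.1 and 18.5 TPM, a kept percent of 34.6%. Its value rested on the 10 minute library of culture 2: without that library the kept percent was 25.7%, and in depleted cells it was 23.8%. That library held the highest of the 4 preexisting values for 48.3% of all genes tested, and leaving it out moved the median kept percent from 16.4 to 15.1%.

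Luc7l, a U1 snRNP-associated factor (chr17:26252896-26285504), was the exception of the group. Its intronic values were 155, 138, 137 and 131 TPM in new and 192, 256, 236 and 229 TPM in preexisting RNA, with no overlap (-0.70, SE 0.20, limma adjusted p = 0.012). Exonic Luc7l signal went the other way, from 64.9 to 39.3 TPM, so that introns made up 68.4% of its signal in new and 85.3% in preexisting RNA (ratio -1.42, adjusted p = 0.0019). In depleted cells Luc7l kept 128%. All of its preexisting intronic signal (100%) lay in entries that touch annotated exons, so it had no exon-free value. Its span was overlapped by 2 other annotated genes, and the pseudogene Gm16580 lay inside an intron. Over its 9 entries the kept percent ran from 12.3 to 247%. What part of the signal came from exons of other transcripts was not tested. The call was lost without culture 1 (-0.80, adjusted p = 0.073) and without culture 2 (-0.61, adjusted p = 0.15), each of which leaves 1 WT culture.

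**Figure D3:**
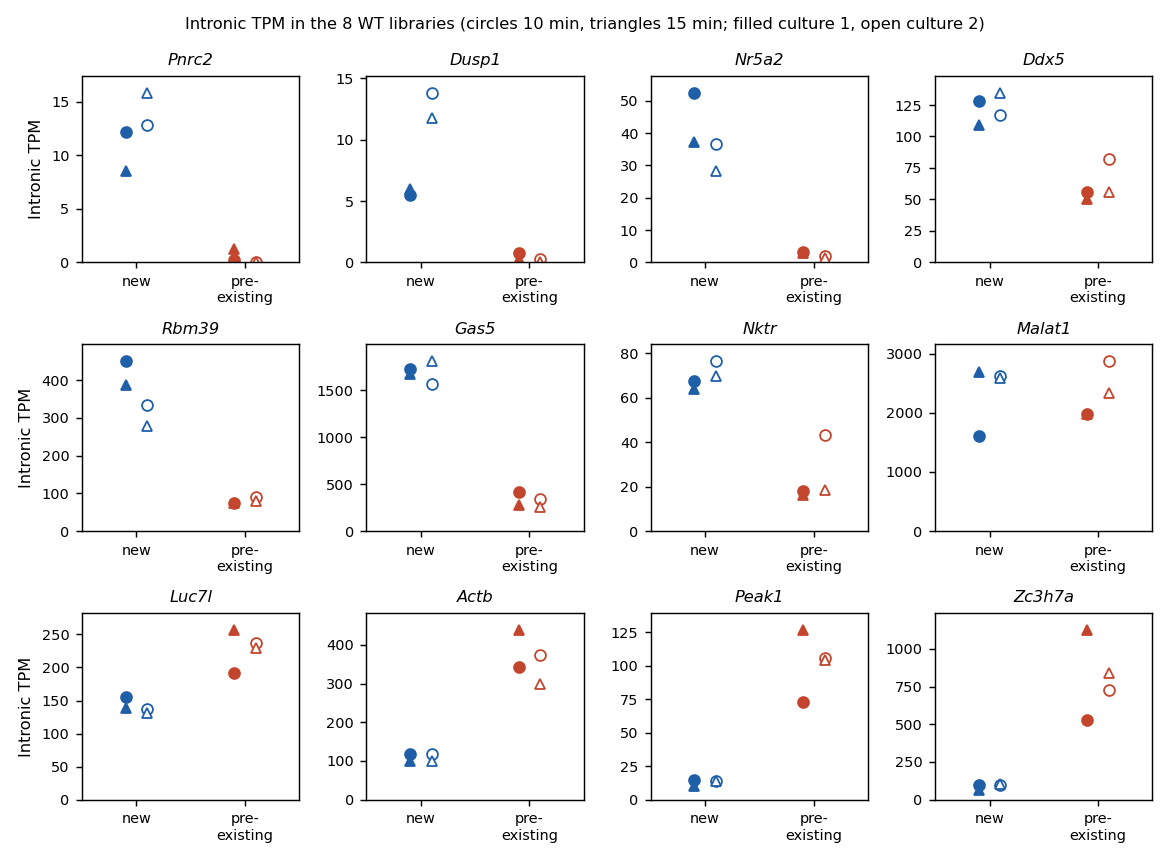
Intronic TPM of 12 genes in the 8 WT libraries, a panel per gene with a linear axis from 0; circles are 10 and triangles 15 minute libraries, filled for culture 1 and open for culture 2. Pnrc2, Dusp1 and Nr5a2 lie near 0 in preexisting RNA, Malat1 overlaps between fractions, Nktr has 1 high preexisting library, and Luc7l, Actb, Peak1 and Zc3h7a lie higher in preexisting RNA.

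Housekeeping groups had median kept percents below the 16.4% of all genes. Of 79 cytosolic ribosomal protein genes, 78 were higher in new RNA, against 94.0% of all genes tested, and 1 was not called. The 79 had a median difference of 2.64 and a median kept percent of 13.2%, and 11 lost more and 2 kept more than the median gene. Rps4x kept 4.96% and Rplp0, of the ribosomal stalk, 5.77%, while Rps3 kept 49.98%. Proteasome genes (30 tested, 29 higher in new, median kept percent 13.9%), respiratory chain genes (37 entries, 36 higher in new, 13.6%) and translation factors (34 tested, 33 higher in new, 14.3%) were alike. In each of these groups 1 gene was not called; among proteasome genes it was Psmd13 (180, 208, 152 and 167 TPM in new, 266, 206, 159 and 183 TPM in preexisting RNA), and in the respiratory chain Uqcrh (27.9, 25.8, 25.6 and 26.2 TPM against 28.2, 27.7, 30.99 and 22.5 TPM). Measured only on entries free of annotated exons, Psmd13 kept 26.6% and Uqcrh 7.57%.

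Of 18 tested genes of naive pluripotency, 17 were higher in new RNA (median kept percent 13.2%), against 94.0% of all genes tested. Of the 18, 4 lost more and 2 kept more than the median gene. Tbx3, a T-box factor, had 13.9, 10.96, 7.73 and 7.69 TPM in new and 0.722, 0.444, 0.222 and 0.190 TPM in preexisting RNA. Esrrb, an orphan nuclear receptor, had 34.96, 25.1, 40.3 and 33.9 TPM in new and 2.78, 2.61, 3.19 and 1.96 TPM in preexisting RNA (3.43, SE 0.24). Both lost more than the median gene, by 1.52 and 1.40. Nanog kept 23.8%. The member not called was Sall4, a zinc finger factor, with 30.8, 21.6, 27.9 and 30.6 TPM in new and 31.1, 64.6, 38.0 and 44.7 TPM in preexisting RNA; the libraries did not overlap and the difference was -0.67 (adjusted p = 0.059).

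Among DNA methylation and polycomb enzymes, 15 of 17 were higher in new RNA, against 94.0% of all genes tested. The exceptions were Dnmt3a (kept percent 79.5%) and Jarid2 (104%). Jarid2, a subunit of the polycomb complex PRC2, had 189, 137, 112 and 85.7 TPM in new and 112, 178, 112 and 144 TPM in preexisting RNA, which overlapped. All 6 tested immediate early genes, which respond to stimulation within minutes, were higher in new RNA and had the lowest median kept percent of the groups, 4.62%; on the log2(TPM + 0.5) scale, which shrinks low values, their median of 1.96 was near that of all genes. Dusp1, a MAP kinase phosphatase, had 5.52, 5.95, 13.8 and 11.8 TPM in new and 0.782, 0.264, 0.289 and 0.0410 TPM in preexisting RNA. Klf6 kept 3.20% and Myc 8.37%. Intronic levels of these genes are low, and none of the 6 was called against the median gene.

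Other groups tied to RNA processing had medians of 13.6 to 17.8%. All 25 tested genes of nuclear RNA decay (median kept percent 13.6%), all 21 known to hold a minor-class intron (17.8%), all 17 microRNA hosts (14.0%) and all 11 of the microRNA pathway (15.6%) were higher in new RNA, against 94.0% of all genes tested. Relative to the median gene, 6, 5, 1 and 0 of them in that order lost more and 0, 1, 0 and 1 kept more, against 12.4 and 18.4% of all genes. Xrn2, the nuclear 5′ to 3′ exonuclease, kept 8.48%. Of the minor-intron genes, Xpo4 kept 8.62% and Mapk3 33.9%; an entry covers all introns of a transcript, so the minor intron alone was not measured. In the microRNA pathway Dicer1 kept 9.79% and Dgcr8, the microprocessor partner of Drosha, 26.5%. Mir17hg, the host of the miR-17 to miR-92 cluster, had 10.7, 9.13, 8.87 and 8.42 TPM in new and 1.35, 2.99, 12.3 and 1.56 TPM in preexisting RNA. Its kept percent of 48.9% fell to 20.1% without the 10 minute library of culture 2, and its call was lost without culture 1 (0.30, adjusted p = 0.48).

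Transcripts that host small nucleolar RNAs in their introns were higher in new RNA in 20 of 21 cases, against 94.0% of all genes tested, with a median kept percent of 18.1%; 1 lost more and 3 kept more than the median gene. Gas5, a noncoding host whose spliced RNA is decayed by a translation-dependent route, had 1728, 1670, 1566 and 1807 TPM in new and 416, 274, 337 and 257 TPM in preexisting RNA (kept percent 18.9%), while its exonic mean went from 2345 to 845 TPM. The median exonic kept percent over the 21 hosts was 56.7%, against 93.1% over all genes. The host not called was Hspa8, a heat shock cognate chaperone, with 607, 429, 441 and 413 TPM in new and 530, 589, 585 and 595 TPM in preexisting RNA. Of its preexisting signal, 69.2 and 29.4% lay in entries with 94.6 and 97.4% of bases exonic in another Hspa8 transcript. Its other entries, with 92.0 to 100% of bases exonic, kept 3.66 to 10.2%. Mature snoRNAs lie inside introns of the host transcripts, and their part in the intronic values was not tested.

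**Figure D4:**
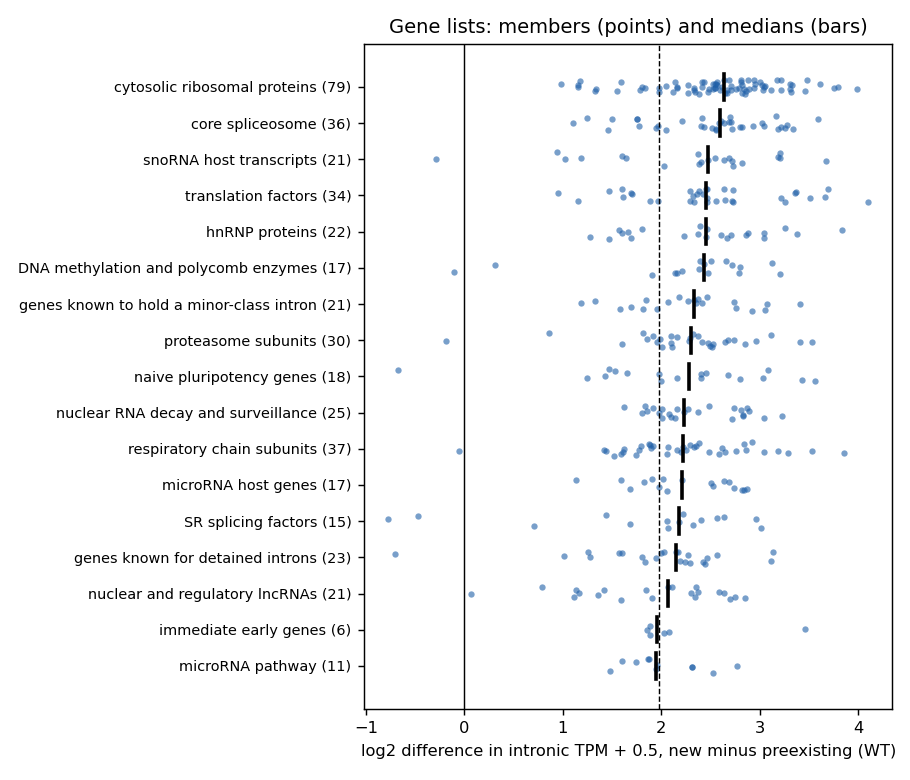
Difference in log2(intronic TPM + 0.5), new minus preexisting RNA of WT cells, for the tested members (points, spread vertically for sight) of the 17 gene groups with at least 5, with the number tested in brackets; bars are group medians, the solid line is 0 and the dashed line the median of all tested genes, 1.98. Ribosomal protein genes have the highest median (2.64) and the microRNA pathway the lowest (1.95), and the points left of 0 include Srsf2 and Luc7l.

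Noncoding genes had a higher median kept percent than coding ones. Over all tested genes, the median difference was 1.53 for 1195 lncRNAs and 2.04 for 10281 coding genes, and the median kept percents were 21.3 and 15.8%. Of the lncRNAs 476 kept more and 47 lost more than the median gene. Exonic signal of lncRNAs was also lower in preexisting RNA, with a median exonic kept percent of 27.0%, so the intronic to exonic ratio differed by a median of only 0.32, and 201 of 697 lncRNAs had a ratio called higher in new and 68 higher in preexisting RNA. Introns made up a median of 64.3% of lncRNA signal in new and 61.0% in preexisting RNA, against 39.2 and 9.75% for coding genes. The lncRNA medians include genes antisense to others, and strand use is not given in the sources used here, so reads of antisense partners cannot be told apart.

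Of 21 tested lncRNAs with known nuclear or regulatory roles, 19 were higher in new RNA, against 94.0% of all genes tested, and 2 were not called. The median kept percent of the 21 was 18.1%, and 4 kept more than the median gene. Xist, the X inactivation RNA, had 7.33, 5.84, 5.96 and 4.62 TPM in new and 0.287, 0.718, 0.650 and 0.462 TPM in preexisting RNA (8.91%), and Firre kept 19.2%. Strand is not known for these values either, so reads of RNA antisense to Xist cannot be told apart in this XY line. Malat1, an abundant nuclear speckle RNA, had 1614, 2689, 2625 and 2587 TPM in new and 1974, 1981, 2867 and 2326 TPM in preexisting RNA, which overlapped (0.06, SE 0.22, adjusted p = 0.79; -1.76 when rescaled to intronic entries). Of its preexisting signal 97.2% came from a 271-base intron that is wholly exonic in another Malat1 transcript. Neat1, of paraspeckles, was at 1.69 TPM or less in every library and was not called.

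Gene structure went with small differences in the kept percent of coding genes. Its median was 18.4% for gene spans under 5 kb, 17.4% for 5 to 20 kb, 15.2% for 20 to 50 kb, 14.1% for 50 to 100 kb and 15.9% for 100 kb or more. By number of introns it stayed between 14.3% (1 intron) and 16.2% (10 to 19 introns). By intron GC content it was 15.3% under 40%, 14.9% at 40 to 45%, 16.1% at 45 to 50% and 19.1% at 50% or more. The widest step followed the annotation: 15.3% where no intron base was exonic in another transcript, 14.9% under 5%, 15.7% at 5 to 20%, 18.7% at 20 to 50% and 23.0% at 50% or more. These are medians over genes, which are not replicates.

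Single introns could be read where an entry held exactly 1 intron that overlapped no annotated exon. In coding genes with at least 5 TPM of exonic signal in preexisting RNA, 269 such introns of 259 genes had at least 200 bases and 5 TPM. Introns of 1 autosome were left out of this set. The median kept percent of the 269 was 9.17%. For 266 of them the 4 new libraries lay above the 4 preexisting ones, and for none the reverse. Whether other entries of a gene hold the same intron was not checked, so the division of reads among entries may enter these values. Such entries of the same gene could differ widely. Hnrnpa2b1, which encodes 2 related hnRNP proteins and has 13 entries, held the lowest value of all and also a high value. Its 595-base intron (chr6:51463494-51464088, minus strand) had 12.2, 6.66, 5.79 and 3.54 TPM in new and 0.0340, 0, 0.0740 and 0 TPM in preexisting RNA, a kept percent of 0.383% (0.825% in depleted cells). Its 486-base intron (chr6:51461434-51461919) had 34.2, 31.2, 42.9 and 35.5 TPM in new and 12.2, 14.3, 8.41 and 15.7 TPM in preexisting RNA, a kept percent of 35.2% (39.7% in depleted cells). A 1490-base intron of Dgcr8 (chr16:18287613-18289102, minus strand) kept 40.6%, and 45.1% in depleted cells.

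The ends of these introns are shown because splice sites are the sequences the spliceosome reads first. Each line gives 3 exon and 9 intron bases at the 5′ splice site or 24 intron and 3 exon bases at the 3′ splice site, 5′ to 3′ on the gene's strand from GRCm38, with the GT and AG of the intron ends in capitals.
Hnrnpa2b1 595-base intron, 5′ splice site (chr6:51464080-51464091): gagGTaattatt
Hnrnpa2b1 595-base intron, 3′ splice site (chr6:51463491-51463517): gctttcttgtttcaatcattgcAGgga
Hnrnpa2b1 486-base intron, 5′ splice site (chr6:51461911-51461922): atgGTaggtaaa
Hnrnpa2b1 486-base intron, 3′ splice site (chr6:51461431-51461457): gatactttttttttcctttggcAGgaa
Dgcr8 1490-base intron, 5′ splice site (chr16:18289094-18289105): cagGTaggtgcg
Dgcr8 1490-base intron, 3′ splice site (chr16:18287610-18287636): tgatccctactcttactctcttAGgtt

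Sequence features of the splice sites varied little over classes of kept percent. The first 6 intron bases were GTAAGT, a perfect match to U1 snRNA, in 18.2% of the 44 introns kept under 5%, 18.3% of the 104 kept at 5 to 10%, 16.1% of the 87 at 10 to 20% and 14.7% of the 34 at 20% or more. The median content of C and T in the 20 bases before the last 3 was 72.5, 75, 75 and 70% in these classes, and median GC content was 39.9, 41.5, 42.1 and 43.7%. Both C and T content and GTAAGT were counted on the gene's strand, and 266 of the 269 introns began with GT and ended with AG. These are descriptions with no test. The 3 introns whose libraries overlapped included one of Lrrfip1, with 5.35, 6.24, 4.50 and 4.69 TPM in new and 6.003, 6.26, 3.29 and 5.78 TPM in preexisting RNA, and one of Nktr, whose preexisting values were 2.12, 1.68, 15.3 and 2.14 TPM, high in culture 2 at 10 minutes alone.

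**Figure D5:**
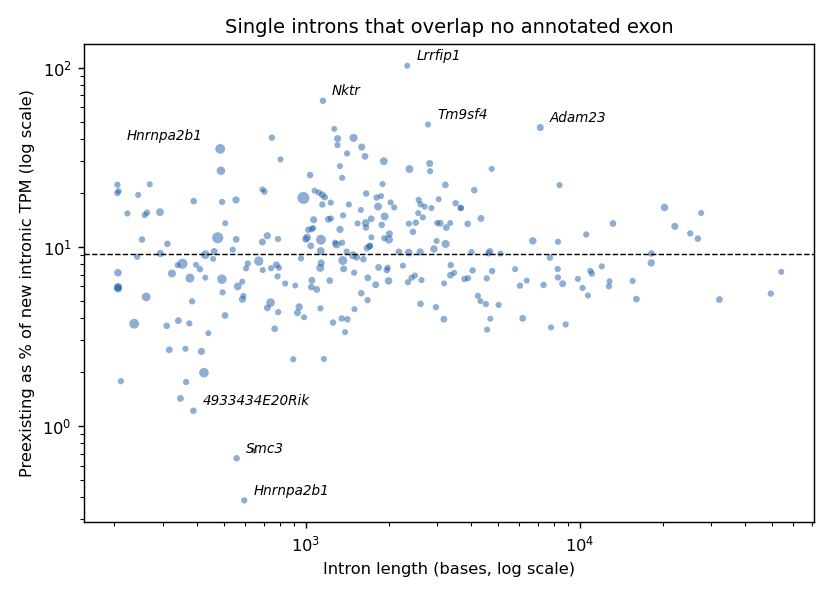
Kept percent of the 269 single introns free of annotated exons (vertical, log axis) against intron length in bases (horizontal, log axis), each point an intron whose area grows with its TPM in new RNA. The dashed line is the median of 9.17%, and the 2 introns of Hnrnpa2b1 at 0.383% and 35.2% are marked among others.

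The 67 genes higher in preexisting RNA had a median kept percent of 211%, and 208% in depleted cells, where 66 of the 67 were again higher in preexisting RNA and 57 were called. They comprised 38 coding genes, 22 lncRNAs and 7 pseudogenes; lncRNAs made up 32.8% of them and 8.83% of the 11222 genes higher in new RNA, and annotated antisense genes 17.9% and 3.56%. Another annotated gene overlapped the span of 57 of the 67 (85.1%, against 59.7%), and a pseudogene lay inside an intron of 17 (25.4%, against 11.8%). At least 10% of intron bases were exonic in another transcript for 33 (49.3%, against 35.6%).

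Only 3 of the 67 met the naming rule, which leaves out genes overlapped by another gene: Actb, Ica1 and P4hb. Actb, cytoplasmic actin (chr5:142903115-142906754), had intronic values of 117, 99.3, 117 and 100 TPM in new and 344, 438, 374 and 298 TPM in preexisting RNA (-1.73, SE 0.21, limma adjusted p = 0.00013). Exonic Actb was also higher in preexisting RNA, at 1525 against 405 TPM, and the ratio did not pass the test (0.18, adjusted p = 0.47). A 180-base intron that is wholly exonic in another Actb transcript held 92.6% of the preexisting intronic signal. P4hb, a protein disulfide isomerase subunit, had the same layout, with 98.3% of its preexisting signal in a 518-base intron that is exonic elsewhere; its difference was -0.85 (adjusted p = 0.046; 0.20 and 0.16 without culture 1 or 2), and on entries free of exons it was higher in new RNA by 1.83.

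On entries free of annotated exons, 3791 genes could be tested. Of these 3639 (96.0%) were called, 3629 (95.7%) higher in new and 10 (0.264%) higher in preexisting RNA, and the median kept percent was 13.0%, with quartiles of 8.50 and 19.1%. Of 841 coding genes with at least 5 TPM there in the higher fraction and 5 TPM of exonic signal, 71 kept under 5% and 9 kept 50% or more. Glce, an epimerase of heparan sulfate synthesis, was among the 9, with exon-free values of 18.1, 14.3, 18.4 and 15.6 TPM in new and 15.3, 18.2, 15.9 and 16.6 TPM in preexisting RNA, which overlapped. Of the 67 genes, 14 had such entries: 10 were higher in preexisting RNA, and Zc3h7a, P4hb, Atf2 and Mettl23 were higher in new RNA. Among the 10, Gm32618, Gm2566, Gm5723, Gm340, Gm6493, Gtpbp4-ps3 and Gtsf2 held 0% of preexisting signal in entries touching an exon. Their values were the same with and without such entries, so their direction could not change. Arhgap21 (58.0%) and Wdr92 (35.8%) did hold signal in such entries, and stayed higher in preexisting RNA without them.

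The coding genes that stayed higher on exon-free entries with the largest difference were Arhgap21 and Wdr92. Arhgap21, a GTPase-activating protein (chr2:20847919-20968881), had 63.5, 47.4, 56.1 and 55.2 TPM over all its introns in new and 173, 244, 181 and 213 TPM in preexisting RNA (-1.86, SE 0.20). On exon-free entries it had 18.4, 12.4, 15.8 and 17.0 TPM and 70.9, 102, 78.0 and 89.6 TPM, a kept percent of 535% (518% in depleted cells). The excess lay in 6 of its 18 entries, which had kept percents of 360 to 707%, the highest in an entry of 5 introns. The other 12 had kept percents of 5.70 to 25.9%. Which introns these entries have in common, and how reads were divided among them, was not checked. Wdr92 (chr11:17182107-17233796) had exon-free values of 4.21, 2.92, 3.94 and 3.504 TPM in new and 8.85, 10.7, 19.4 and 10.9 TPM in preexisting RNA (-1.61, SE 0.25). Both genes were higher in all 4 preexisting libraries than in any new one, and another annotated gene overlapped the span of Arhgap21 and 2 that of Wdr92.

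The largest differences of all towards preexisting RNA belonged to genes that share a stretch of sequence in an intron. A 457-base stretch of a Zc3h7a intron (chr16:11143925-11144381), around the annotated microRNA gene Gm23935, was searched against GRCm38; it was picked after the values were seen, so what follows is a description. At 60 aligned bases and 85% identity or more, copies lay in introns of 12 tested genes. Of these 8 were higher in preexisting RNA (8 of the 67, 11.9%), 2 were higher in new RNA (2 of 11222, 0.0178%) and 2 were not called (2 of 651, 0.307%). The 8 were Col6a6 (kept percent 1313%), Zfp791 (1042%), Zc3h7a (887%), Peak1 (785%), Ica1 (338%), Gm26561 (278%), Cntnap5b (212%) and Atf2 (148%), the 2 higher in new RNA were Luzp1 (30.1%) and Zfand3 (13.3%), and those not called were Gm5577 and Itga9. The stretch resembles large-subunit ribosomal RNA, from general knowledge; no complete ribosomal RNA sequence was used here, so the match was not tested. The authors removed reads of ribosomal RNA before counting, but any that were left cannot be told apart from intronic reads of these genes, so their kept percents may not measure their introns alone.

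A 60-base window of it is printed from 4 genes higher in preexisting RNA and from Zfand3, higher in new RNA, to show how alike the copies are. All are written in the direction of the Zc3h7a copy on the plus strand, and capitals mark bases that differ from it.
Zc3h7a (chr16:11144213-11144272, plus strand): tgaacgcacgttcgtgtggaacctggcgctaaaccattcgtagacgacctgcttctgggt
Peak1 (chr9:56223624-56223683, minus strand): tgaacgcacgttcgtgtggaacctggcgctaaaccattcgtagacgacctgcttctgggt
Atf2 (chr2:73867899-73867958, plus strand): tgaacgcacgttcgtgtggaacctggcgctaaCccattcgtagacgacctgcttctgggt
Ica1 (chr6:8728863-8728922, minus strand): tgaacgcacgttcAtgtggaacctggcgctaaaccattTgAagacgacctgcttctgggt
Zfand3 (chr17:30134480-30134539, plus strand): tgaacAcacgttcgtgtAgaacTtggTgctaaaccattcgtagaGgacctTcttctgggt

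The window was identical in Zc3h7a and Peak1, and differed at 1 base in Atf2, 3 in Ica1 and 6 in Zfand3. Among copies not printed, that of Gm5577, which was not called, differed at 2 bases. The copies of Zfp791 (kept percent 1042%) and of Itga9, which was not called, each lacked 15 bases of the window. The count of differences thus did not order the genes by their calls. Zc3h7a, a zinc finger RNA-binding protein (chr16:11136592-11176393), had intronic values of 100, 65.4, 96.5 and 101.1 TPM in new and 530, 1124, 726 and 839 TPM in preexisting RNA (-3.15, SE 0.24, limma adjusted p = 2.2e-05), with exonic means of 77.9 and 69.1 TPM. On its entries free of annotated exons, Zc3h7a was instead higher in new RNA, by 2.00, and kept 17.7%. Peak1, a pseudokinase (chr9:56201126-56418067), had 14.6, 10.0, 13.9 and 13.7 TPM in new and 73.2, 127, 106 and 104 TPM in preexisting RNA (-2.93, SE 0.20). Ica1 (chr6:8630527-8778488) had 11.4, 8.66, 14.0 and 13.0 TPM and 28.2, 52.9, 37.6 and 40.2 TPM. Across these 3 genes the preexisting library of culture 1 at 15 minutes was the highest and that at 10 minutes the lowest. Atf2 kept 7.55% on exon-free entries, and over all entries its call was lost without either culture (adjusted p = 0.10 and 0.31).

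Genes with no such copy could reach the same size. Cd44, a cell surface receptor (chr2:102811141-102901665), had 1.35, 0.852, 1.34 and 1.41 TPM in new and 10.0, 14.4, 19.2 and 14.2 TPM in preexisting RNA (-3.09, SE 0.20). Sspn had 9.81, 6.81, 8.18 and 10.1 TPM and 50.9, 88.9, 63.1 and 75.3 TPM. Exonic signal of both was under 1 TPM in each fraction, and another annotated gene overlapped each span. Of the 67, 6 genes (8.96%) had neither a copy, nor an overlapping gene, nor 10% of their intron bases exonic elsewhere, against 28.1% of the genes higher in new RNA.

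Dicer-depleted cells gave nearly the same comparison. There 11203 genes (93.8%) were higher in new and 76 (0.637%) in preexisting RNA, with a median difference of 1.98, and 11069 genes were called in the same direction in WT and depleted cells. Across genes the differences of the 2 genotypes correlated at 0.87, as a description over genes that are not independent. The difference between genotypes was itself called for 1 gene (0.00838%), and 369 had an unadjusted p under 0.05 in limma.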

How the data were processed

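RNA of WT and Dicer-depleted mouse embryonic stem cells was sequenced after 4sU labelling, in 16 libraries made from 10 ng of RNA each. Per the labels' protocols, STAR 2.5.0 first took out what mapped to ribosomal RNA; what remained was placed on introns and exons by STAR and quantified with RSEM; the submitters' processing notes name mm10. The values the authors deposited are a signal named TPM, of which every column sums to 10000000; 10 deposited units make 1 TPM here. Depth per library is not given by such values, so no counting interval can be set.

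Each intronic entry covers all introns of 1 transcript. Of 91702 intronic entries, 89935 matched GENCODE M21 and were summed per gene. A TPM keeps the length correction of its own transcript, so an entry of a short intron that is exonic elsewhere can outweigh long introns. Both pulse lengths of a culture were averaged, giving 2 cultures per genotype and fraction. Genes with a mean of at least 1 TPM were tested with limma 3.58.1 (trend, all 4 groups in 1 fit) on log2(TPM + 0.5), which understates the change of low genes, with Benjamini-Hochberg adjustment over all genes tested and a threshold of 0.05, two-sided. The ratio test also needed 1 TPM of exonic signal. The scripts were tested on simulated data. Copies of the shared stretch were found with BLAST 2.17.0 in GRCm38, at 60 bases and 85% identity or more. R 4.3.3, Python 3.11.15, numpy 2.4.6, pandas 2.3.3, scipy 1.17.1, pysam 0.24.0 and matplotlib 3.10.9 were used.

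The members, the 21 gene lists and the tests were chosen with earlier results of these data known. Named genes were members of the lists and, per comparison and direction, the 12 largest called differences among coding genes and lncRNAs with a symbol, no other gene overlapping the span, at least 5 TPM of intronic signal in the higher fraction and no overlap between the fractions' 4 WT libraries; the ratio also needed 5 TPM of exonic signal in both fractions. For the intronic share in preexisting RNA, the 12 highest with at least 5 TPM exonic and 2 TPM intronic were taken. Other genes named among the 67, single introns and exon-free entries were chosen after their values were seen. Histone, fibroblast and trophoblast lists gave 1, 0 and 0 tested genes, and the primitive endoderm list 2, of which 1 was higher in new RNA. Alternatives covered the pseudocount, the minimum, scaling, overlapping genes, pulse lengths, cultures and a replicate block; the use of exon-free entries was chosen after seeing the data. Fractions of a culture number share only that number in the labels. Small RNA libraries were not used here.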

Additional observations from a re-analysis of the deposited data

Results flagged for a closer look

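The difference between new and preexisting intronic signal was itself different between genotypes for 1 gene, by a test of the difference. Gm34866, an annotated antisense gene (chr3:144749482-144750087 in GRCm38), was listed at 0 TPM of intronic signal in all 8 WT libraries and in new RNA of depleted cells. In preexisting RNA of depleted cells it had 5.80 TPM ± 0.47 (SD, n = 2 cultures). The difference of differences was 3.65 (SE 0.17, limma adjusted p = 0.0012) on the log2(TPM + 0.5) scale. The pseudocount sets the size of a difference from 0, so it is no fold change. Another annotated gene overlaps the span, and an antisense partner cannot be told apart without strand. With a pseudocount of 0.1, or without WT culture 1, no gene was called.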

How the results depend on the processing

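The number of genes called for intronic signal was 11289. It became 19859 with no minimum and 4716 with a minimum of 5 TPM, 4531 over genes overlapping no other gene and 3639 on exon-free entries, all of which change the number tested. It was 6050 when rescaled to intronic entries and 3677 when centred on the median gene (1481 higher in new and 2196 in preexisting RNA), settings that move the reference from all RNA to introns. The ratio's 8441 became 13054, 4288, 3474 and 2771 under the same settings and 3713 when centred. Leaving out 1 WT culture gave 10553 to 10897 genes for intronic signal, 7029 to 7085 for the ratio and 0 to 1 for the difference between genotypes. That last count, 1, became 0 with a pseudocount of 0.1, 2 with no minimum, 0 with a minimum of 5 TPM and 3 with 10 minute libraries; the cause was not tested. The intronic share differed by 10.9 points over coding genes, 13.2 at 10 minutes and 11.6 at 15 minutes, and by 12.1 to 12.6 without 1 culture, against 12.4; the pulse length settings were chosen after seeing the data.

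Single genes reversed as follows. When rescaled to intronic entries and when centred, Ddx5 gave -0.82 and -1.02, Malat1 -1.76 and -1.97, Mir17hg -0.52 and -0.90, Nktr -0.23 and -0.46, Srsf5 -1.14 and -1.33, and U2af1 -0.66 and -0.93. On 10 minute libraries Malat1 gave -0.21 and the ratio of Zfp202 0.14. On exon-free entries, chosen after seeing the data, Atf2 gave 2.90, P4hb 1.83 and Zc3h7a 2.00. Of the values of single genes under an alternative, 808 kept direction and side of the threshold, 33 lost their call, 11 gained one and 17 reversed.

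Same-numbered fractions deviated together in WT (correlation 0.36) but not in depleted cells (0.084), and 2 pairs cannot show pairing. New RNA of same-numbered WT and depleted cultures also deviated together (0.42), so the depleted libraries may not be independent of the WT ones. With a replicate block, 11387 genes were called for intronic signal, 8507 for the ratio and 1 for the difference between genotypes; among the genes named above P4hb lost its call (adjusted p = 0.060).

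Depth is unknown, so how far low counts limit genes near 1 TPM was not measured, and values at 0 in both fractions are read as listed at 0. With 2 cultures per group, calls rest on a spread pooled over all genes and 4 groups.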
